A study of Mus musculus with 60 samples.

Results

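The T cell receptor (TCR) beta chain (TCRB) repertoires of donor CD4+ T cells from the gut and from the liver were compared on day 6 after allogeneic hematopoietic cell transplantation (HCT). The comparison took all 6 gut and all 6 liver libraries of the CD4 TCRB table, 12 of the 60 samples of the series. The 3 libraries of that table titled naive, whose columns name the spleen, are given beside them as a reference. They are called before HCT here. Recipients were lethally irradiated BALB/c mice, which received T cells from C57BL/6 donors with T cell-depleted bone marrow of wild-type (WT) C57BL/6 mice. This transplant crosses a mismatch of the major histocompatibility complex and can cause graft-versus-host disease (GVHD). The donor T cells were WT, lacked the transcription factor STAT3 (STAT3ko), or lacked STAT3 and the inhibitory receptor PD-1 (STAT3koPD-1ko), and each genotype had 2 libraries per tissue, numbered 1 and 2. The study reported lethal acute GVHD with WT and STAT3koPD-1ko T cells, and only a mild, reversible form with STAT3ko T cells. Each library was made from cells pooled from 3 recipients and sorted as CD4+ T cells with the donor molecule H-2Kb, so neither library of a group is a single mouse, and p-values measure the spread between pools. The table holds receptor sequences alone, so the sort for CD4 and H-2Kb cannot be checked in it. In bulk RNA, more cells with a segment and more TCR transcripts per cell cannot be told apart.

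A TCR beta chain is assembled in the thymus by joining 1 V, 1 D and 1 J segment. The complementarity determining region 3 (CDR3), which runs from a conserved cysteine at the end of the V segment to a conserved phenylalanine in the J segment, spans these joints and contacts the peptide presented by the major histocompatibility complex. In the locus, the TRBD1 segment precedes the TRBJ1 cluster and the TRBD2 segment lies between the TRBJ1 and TRBJ2 clusters, so TRBD1 can join either cluster, whereas TRBD2 normally joins TRBJ2 segments. Some V segments react as a class with superantigens of endogenous mouse mammary tumour viruses, whatever the CDR3. TRBV26 (V beta 3), TRBV12-1 and TRBV12-2 (V beta 5), TRBV16 (V beta 11), TRBV15 (V beta 12) and TRBV23 (V beta 20) are V segments with known superantigen reactivity, a list that is not complete.

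The table listed 85775 clonotypes, where a clonotype is defined by its V segment, its J segment and its CDR3 residues, and every listed clonotype had been found in at least 2 of the 18 libraries joined. Its values are fractions of reads, and the number of reads per library is unknown. The listed clonotypes held 81.6% to 83.6% of the reads of the 3 gut libraries numbered 1, but 47.8% to 51.5% of those numbered 2 and 85.6% to 93.5% of the 6 liver libraries. Overlap, which adds up for each clonotype the lower of its frequencies in a pair of libraries, was 19.9% to 32.4% between gut and liver libraries numbered 1 of the same genotype and 20.1% to 25.1% between gut libraries numbered 1 and liver libraries numbered 2, against 6.86% to 8.85% and 7.69% to 10.02% between genotypes. Gut libraries numbered 2 shared 3.83% to 7.84% with liver libraries numbered 1 and 4.24% to 8.74% with those numbered 2 of their genotype, against 3.74% to 6.60% and 4.29% to 7.65% between genotypes. The overlap of gut with liver thus went with the gut library's number and not with a number in common. Libraries numbered 1 and 2 of a genotype shared 4.86% to 10.4% within gut and 6.42% to 9.76% within liver. The tests treat libraries as separate pools and take no account of such sharing. The liver libraries numbered 1 shared 39.0% to 52.0% with the before HCT library of their genotype, whereas those numbered 2 shared 5.03% to 7.45%. Between genotypes these overlaps were 4.65% to 6.90% and 5.58% to 7.36%. The gut libraries numbered 1 shared 13.0% to 19.95% with the before HCT library of their genotype and those numbered 2 3.04% to 6.08%. Between genotypes these overlaps were 5.03% to 7.50% and 3.31% to 6.07%. The gut libraries numbered 2 and the liver libraries numbered 1 stood apart from the others of their tissue, and the main results are also given without them. Usage was taken as a percentage of the listed reads of a library.

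The sequences below are examples of receptors from the V-J pairs that the results turned on, as deposited, from the conserved cysteine codon on, with the bases called as D segment in capitals.
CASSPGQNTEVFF, TRBV26 with TRBJ1-1: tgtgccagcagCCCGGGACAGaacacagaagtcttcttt
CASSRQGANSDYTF, TRBV26 with TRBJ1-2: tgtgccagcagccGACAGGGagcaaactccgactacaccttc
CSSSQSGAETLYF, TRBV23 with TRBJ2-3: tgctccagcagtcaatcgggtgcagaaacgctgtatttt
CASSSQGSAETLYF, TRBV5 with TRBJ2-3: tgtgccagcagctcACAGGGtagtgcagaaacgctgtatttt
Each was the clonotype of at most 14 residues with the highest mean frequency over the 12 libraries in a V-J pair that differed between the tissues. The first was found in all 6 gut and all 6 liver libraries, at 3.63 to 34.8 per 10000 reads in gut and 0.111 to 3.75 in liver. The TRBV5 clonotype was found in 4 gut libraries, at up to 1.38 per 10000 reads, and in all 6 liver libraries, at 0.141 to 13.9. The TRBV23 clonotype had no D call and was found in 4 gut libraries, at up to 43.7 per 10000 reads with a mean of 7.48 over the 6, so that most of its gut total came from 1 library, and in 2 liver libraries, at up to 0.643.

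TRBV26 (chr6:41227505-41227993, + strand, mm10) and TRBV23 (chr6:41216073-41216526, + strand), both V genes in the annotation, were the segments with the largest rise in the gut. TRBV26 held 22.6%, 25.6% and 28.04% of reads (lowest, median and highest of 6 libraries) in gut and 7.12%, 8.59% and 12.4% in liver, a rise of 1.49 ± 0.12 (log2, SE) on the scale log2(percent + 0.1). TRBV23 held 8.33%, 10.2% and 13.7% in gut and 3.05%, 3.47% and 5.13% in liver, a rise of 1.49 ± 0.17. For neither segment did the gut and liver libraries overlap, and the before HCT libraries were lower still, at 4.45% to 5.68% for TRBV26 and 1.53% to 2.06% for TRBV23. Without the gut libraries numbered 2 the log2 changes were 1.56 and 1.59, and without the liver libraries numbered 1 they were 1.38 and 1.56.

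Counted once each, listed clonotypes separated the tissues less than reads did. TRBV26 made up 22.9%, 27.97% and 30.6% of the listed clonotypes of the gut libraries and 19.95%, 21.02% and 22.9% of those of the liver libraries. The means were 27.05% in gut and 21.3% in liver. TRBV23 made up 4.598% to 8.14% of listed clonotypes in gut and 5.22% to 6.57% in liver, where the tissues overlapped. Both segments were set apart by the same reads, and a clonotype is listed only through its reads. These clonotype shares are therefore a description with no test. The ratio of read share to clonotype share was 0.945 ± 0.066 (SD, n = 6) for TRBV26 in gut and 0.425 ± 0.073 in liver, and 1.74 ± 0.51 against 0.610 ± 0.107 for TRBV23. Neither ratio overlapped between the tissues. The read share that set these segments apart is its numerator, so the ratio is given as a description with no test. The most frequent TRBV26 clonotype held 0.299% to 2.39% of TRBV26 reads in the gut libraries, and the most frequent TRBV23 clonotype 0.931% to 6.76% of TRBV23 reads.

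**Figure D1:**
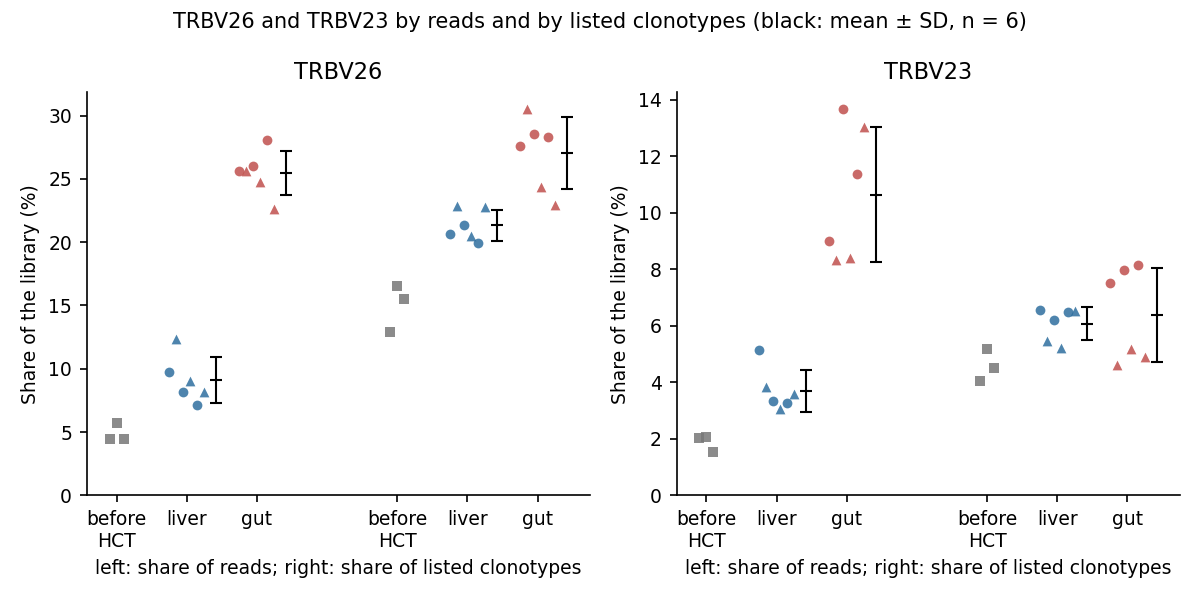
Share of reads and share of listed clonotypes (percent of a library) for TRBV26 and TRBV23. Circles are libraries numbered 1, triangles those numbered 2, squares the before HCT libraries, and black bars the mean ± SD of 6 libraries. By reads the gut libraries lie above all liver libraries for both segments; by clonotypes TRBV26 in gut (22.9% to 30.6%) lies just above liver (19.95% to 22.9%), and TRBV23 overlaps.

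With TRBV26 and TRBV23 left out of the totals, V segment use still differed between the tissues. Of 20 V segments with a mean use of at least 0.5%, 7 were higher and 3 lower in gut (limma, Benjamini-Hochberg adjusted p under 0.05), so that 50% passed. With each clonotype counted once, 2 of 19 passed, 1 of them higher in gut. With all V segments in the totals, 5 were higher and 13 lower among 21 tested (85.7% passed), and the median log2 change over the segments tested moved from -0.03 to -0.46.

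Of the V segments listed above for superantigen reactivity, TRBV12-1, TRBV12-2 and TRBV15 rose. TRBV19, TRBV29, TRBV17 and TRBV13-3, which also have known superantigen reactivity and were added after the values were seen, did not pass, with log2 changes of -0.09, -0.47, -0.24 and -0.05 (limma, adjusted p = 0.131 to 0.756). TRBV12-2 held 2.57%, 3.06% and 3.79% of the remaining reads in gut and 1.14%, 1.42% and 1.76% in liver, a log2 change of 1.09 ± 0.10 (limma, adjusted p = 2.45e-06). TRBV12-1 held 1.89%, 2.40% and 2.66% in gut and 0.844%, 1.19% and 1.49% in liver (log2 change 0.91 ± 0.11). No gut library fell among the liver libraries for either segment, and both also rose with all V segments in the totals. With fractions as deposited neither passed, at log2 changes of 0.18 for TRBV12-2 and 0.02 for TRBV12-1 (limma, adjusted p = 0.419 and 0.917). TRBV15 held 7.71%, 9.11% and 10.7% in gut and 5.52%, 6.90% and 7.30% in liver, again without overlap (log2 change 0.47 ± 0.11, limma adjusted p = 0.00388). With all V segments in the totals, the log2 change of TRBV15 was 0.02 (adjusted p = 0.847). TRBV16 held 12.8%, 17.9% and 21.1% in gut and 16.7%, 17.0% and 20.2% in liver (log2 change -0.01 ± 0.12, adjusted p = 0.908), and its log2 change was -0.46 with all V segments in the totals (adjusted p = 0.00834).

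Of the other V segments, TRBV24, TRBV22 and TRBV3 rose. TRBV24 and TRBV22 are annotated as pseudogenes, with TRBV24 at 0.556% to 1.104% in gut and 0.222% to 0.431% in liver (log2 change 1.13 ± 0.17) and TRBV22 at 1.06% to 2.11% and 0.772% to 1.23% (log2 change 0.67 ± 0.18). TRBV3 held 2.98% to 6.16% in gut and 2.76% to 4.03% in liver (log2 change 0.50 ± 0.14). The groups overlapped for TRBV22 and TRBV3, and for both the call was lost with all V segments in the totals. TRBV5, TRBV14 and TRBV2 fell. TRBV5 held 5.45%, 7.09% and 8.40% in gut and 8.67%, 10.5% and 12.2% in liver, without overlap (log2 change -0.57 ± 0.14, limma adjusted p = 0.00489). TRBV14 held 2.92% to 6.89% in gut and 6.20% to 8.43% in liver (log2 change -0.49 ± 0.17), and TRBV2 1.62% to 2.69% and 2.04% to 3.01% (log2 change -0.37 ± 0.11). Taken as fractions as deposited, without scaling to the listed reads, the log2 changes of TRBV15, TRBV22 and TRBV3 were -0.47, -0.20 and -0.42, and of the 15 V segments that passed 1, TRBV21, was higher in gut.

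**Figure D2:**
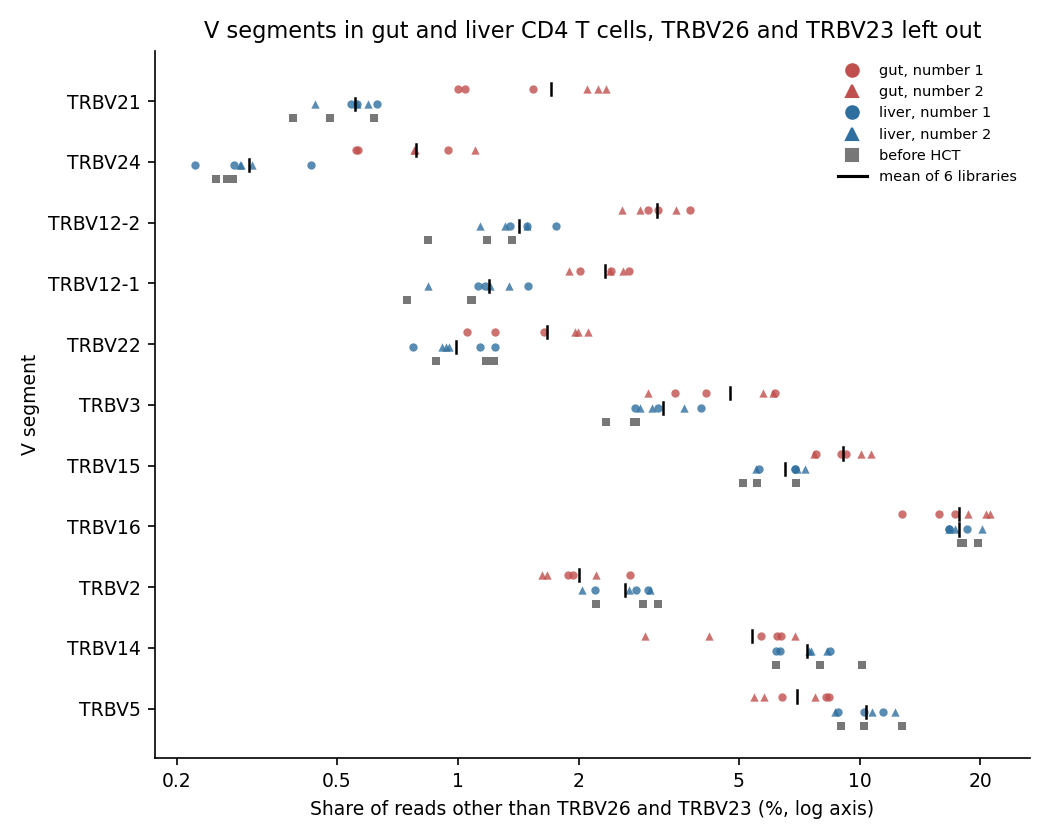
Share of reads other than TRBV26 and TRBV23 (percent, log axis) for the 10 V segments that passed the test and for TRBV16; each point is a library (circles numbered 1, triangles numbered 2, squares before HCT) and black ticks are means of 6. Gut points of TRBV12-2 (2.57% to 3.79%) lie right of all liver points (1.14% to 1.76%), those of TRBV5 left of them, and those of TRBV16 among them.

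TRBV21 (chr6:41202550-41203044, + strand), at 1.00% to 2.34% in gut and 0.441% to 0.629% in liver, rose by 1.40 ± 0.21 (log2, SE), but its reads were almost all 1 listed sequence. That sequence, printed here because the rise rests on it, has no conserved cysteine and no D call and is called with TRBJ2-1.
YAEQFF, TRBV21 with TRBJ2-1: tatgctgagcagttcttc
It held 94.0% to 99.7% of TRBV21 reads in the gut libraries and 91.9% to 98.5% in the liver libraries, and it was present before HCT. With it left out, TRBV21 no longer reached the minimum use and was not tested. Without the gut libraries numbered 2, 6 V segments passed, and without the liver libraries numbered 1 also 6, of which 5 and 6 were higher in gut. TRBV12-1, TRBV12-2, TRBV15 and TRBV21 passed in both, TRBV14 and TRBV2 in neither, and the fall of TRBV5 was lost without the liver libraries numbered 1 (limma, adjusted p = 0.0508).

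V-J pairs of TRBV26 and TRBV23 followed their V segments. Of 188 pairs with a mean use of at least 0.1%, 27 were higher and 64 lower in gut (limma, 48.4% passed). All 12 tested pairs of TRBV26 and all 10 tested pairs of TRBV23 rose, by log2 1.06 to 1.72, whereas of the 166 other pairs 5 rose and 64 fell. Shares are parts of a fixed total, so a rise of TRBV26 and TRBV23 by itself lowers the shares of the other pairs. The median log2 change over the 188 pairs was -0.50. TRBV23 with TRBJ2-3 held 1.21%, 1.42% and 1.86% of reads in gut and 0.257%, 0.461% and 0.610% in liver, a log2 change of 1.72 ± 0.24. The values of TRBV26 and TRBV23 pairs are a description, since their V segments were set apart by the same reads. TRBV26 with TRBJ1-1, the pair of the first sequence printed above, held 3.41%, 3.802% and 4.25% in gut and 0.793%, 1.17% and 1.77% in liver (log2 change 1.70 ± 0.20). TRBV23 with TRBJ1-1, TRBV26 with TRBJ1-4, TRBJ1-3, TRBJ1-2 and TRBJ2-3, and TRBV23 with TRBJ2-4 followed, with log2 changes from 1.66 to 1.51. No gut library overlapped a liver library in any of these 8 pairs.

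The pairs that fell most as a share of all reads were TRBV5 with TRBJ2-1, TRBV1 with TRBJ1-5, TRBV2 with TRBJ1-4, TRBV1 with TRBJ2-1, TRBV29 with TRBJ2-4, TRBV5 with TRBJ2-3, TRBV13-2 with TRBJ1-2 and TRBV14 with TRBJ1-2, with log2 changes from -1.72 to -1.38. With TRBV26 and TRBV23 left out of the totals, no pair passed as lower in gut. TRBV5 with TRBJ2-1 held 0.0717%, 0.305% and 0.403% of reads in gut and 0.637%, 0.703% and 1.23% in liver (log2 change -1.72 ± 0.39, limma adjusted p = 0.00531). TRBV5 with TRBJ2-3, the pair of the TRBV5 sequence printed above, held 0.205% to 0.566% in gut and 0.668% to 1.58% in liver (log2 change -1.39 ± 0.27). TRBV1 with TRBJ2-1 held 0.00978% in STAT3ko gut 2 and 0.223% to 0.433% in the other gut libraries, and its log2 change was -0.85 without that library, against -1.46 with it. In 4 of the 8 pairs at least 1 gut library overlapped the liver libraries. Without the gut libraries numbered 2, 87 pairs passed, 31 of them higher in gut, and without the liver libraries numbered 1, 30 passed, 20 of them higher, so that lower pairs no longer outnumbered higher ones. Leaving out STAT3ko liver 2, STAT3koPD-1ko liver 1 or STAT3koPD-1ko liver 2 alone gave 56, 53 and 54.

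With TRBV26 and TRBV23 left out, 7 of 184 pairs passed, all of them higher in gut (3.8%). Of these, 5 were pairs of TRBV12-1 or TRBV12-2. TRBV12-2 with TRBJ1-4 held 0.153%, 0.309% and 0.622% of the remaining reads in gut and 0.0460%, 0.0626% and 0.131% in liver (log2 change 1.83 ± 0.30, limma adjusted p = 0.00868). TRBV12-2 with TRBJ2-3 and with TRBJ2-2, and TRBV12-1 with TRBJ2-5 and with TRBJ2-4, had log2 changes from 1.52 to 0.83. The other pairs were TRBV3 with TRBJ1-3 (log2 change 1.07 ± 0.26) and TRBV21 with TRBJ2-1 (1.54 ± 0.28), the latter being the sequence without a cysteine.

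J segment use differed between the tissues, with a larger share of the TRBJ1 cluster (chr6:41533864-41535606 from TRBJ1-1 to TRBJ1-6) in the gut. The TRBJ2 cluster held 61.7%, 62.6% and 63.9% of reads in gut and 64.9%, 67.1% and 68.2% in liver, with no overlap and a difference of means of -4.11 percentage points (exact two-sided permutation within genotype, p = 0.00926, the smallest that the arrangements can give, adjusted p = 0.0185 over 6 single values). Of 12 J segments, 4 were higher and 2 lower in gut (50% passed). TRBJ1-3 held 7.07%, 7.67% and 8.53% in gut and 5.14%, 6.25% and 6.54% in liver (log2 change 0.33 ± 0.07, limma adjusted p = 0.00415), the only J segment whose groups did not overlap. TRBJ1-1, TRBJ1-2 and TRBJ1-4 rose by log2 0.23, 0.19 and 0.16, and all 4 had log2 changes below 0, from -0.33 to -0.17, when fractions were taken as deposited. Within the same cluster TRBJ1-5 fell, from 1.61% to 2.53% in liver to 0.885% to 1.71% in gut (log2 change -0.53 ± 0.13, adjusted p = 0.00604). TRBJ2-5 fell from 11.9% to 14.9% in liver to 10.1% to 12.3% in gut (log2 change -0.24 ± 0.06). Without the gut libraries numbered 2, 4 J segments passed, and without the liver libraries numbered 1, 2 passed. The difference in the TRBJ2 share was then -4.09 and -3.22 percentage points, in designs whose smallest exact p is 0.037.

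With TRBV26 and TRBV23 left out, none of the 12 J segments passed (limma, 0%, with 2 at an unadjusted p under 0.05), and TRBJ1-3 had a log2 change of 0.26 ± 0.08 (adjusted p = 0.0970). Within TRBV26 reads and within TRBV23 reads, 0 of 12 passed (0%), with 3 and 0 at an unadjusted p under 0.05. Over all reads other than TRBV26 and TRBV23, TRBJ2 held 64.6%, 65.3% and 66.4% in gut and 65.8%, 67.98% and 68.7% in liver, where the groups overlapped (difference of means -2.23 percentage points, exact permutation p = 0.0185, adjusted p = 0.111, 6 libraries each). Among TRBV26 reads TRBJ2 held 53.3%, 54.5% and 56.5% in gut and 56.8%, 59.2% and 62.5% in liver, and among the reads of the other V segments, counting only sequences from cysteine to phenylalanine, 63.5%, 64.8% and 65.5% in gut and 65.6%, 67.8% and 68.5% in liver. On these sequences both were lower in every gut library than in any liver library, with differences of means of -4.49 and -2.78 percentage points. Both stood at the smallest p that the permutations can give (exact p = 0.00926). Over the 19 values compared within V classes the adjusted p was 0.0880. From that smallest p, both alone could not pass the threshold over 19 values, so the missed threshold decides nothing. Among TRBV23 reads the ranges were 59.8% to 75.1% and 59.3% to 70.2%.

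**Figure D3:**
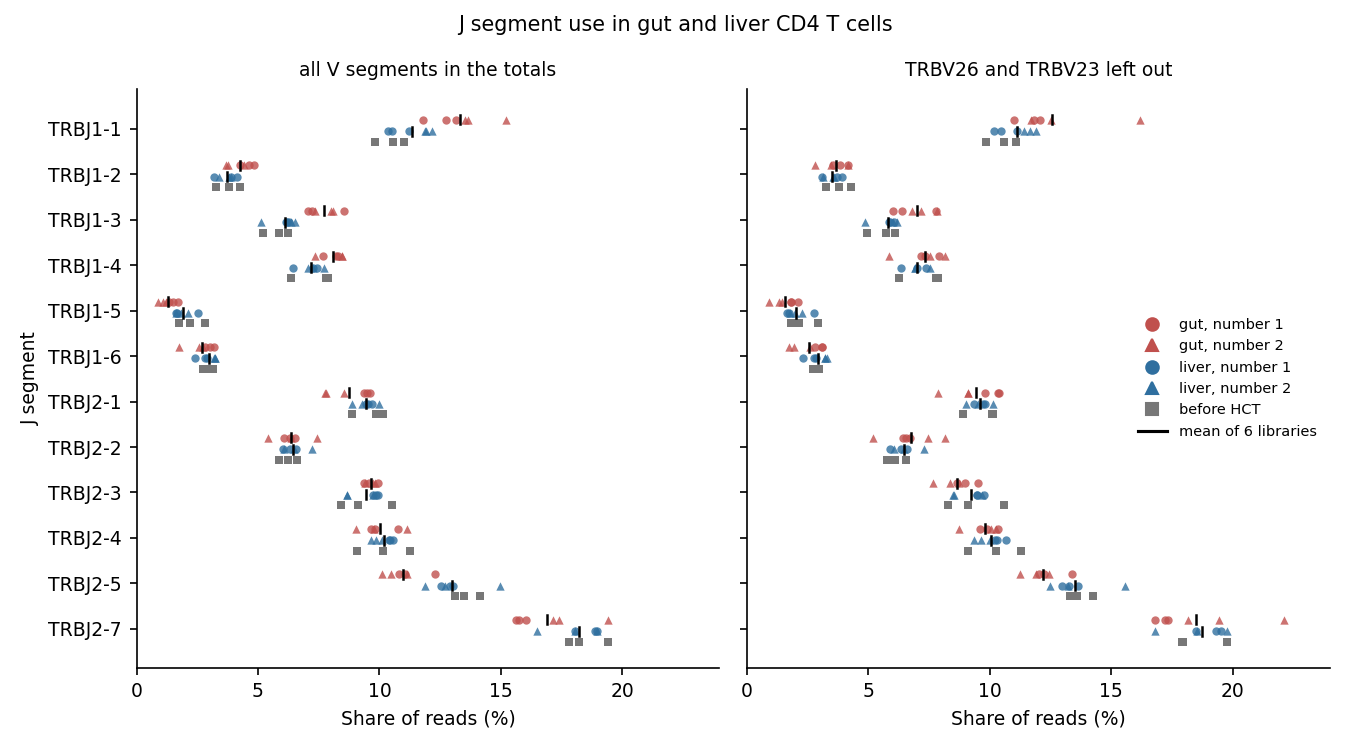
Share of reads (percent) for the 12 J segments with all V segments in the totals (left) and with TRBV26 and TRBV23 left out (right); each point is a library (circles numbered 1, triangles numbered 2, squares before HCT) and black ticks are means of 6. TRBJ1-3 separates gut (7.07% to 8.53%) from liver (5.14% to 6.54%) on the left and overlaps on the right.

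The D segment calls separated the tissues over all V segments, and their groups overlapped without TRBV26 and TRBV23. TRBD1 held 53.4%, 54.9% and 56.1% of reads with a D call in gut and 59.7%, 61.2% and 62.9% in liver (difference of means -6.27 percentage points, exact permutation p = 0.00926, adjusted p = 0.0185, 6 libraries each). With TRBV26 and TRBV23 left out, TRBD1 held 64.4% ± 1.6 (SD, n = 6) in gut and 64.8% ± 1.4 in liver (exact permutation p = 0.750). Within TRBV26, TRBD1 held 36.6% ± 1.4 in gut and 36.8% ± 1.0 in liver (exact permutation p = 0.870, 6 libraries each).

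Many of the TRBV26 calls lay outside the CDR3. The deposited CDR3 of 17805 of the 17815 TRBV26 clonotypes began before the conserved cysteine, usually by 21 residues, and 10702 of the clonotypes were called TRBD2. Of those calls, 6873 (64.2%) began before the conserved cysteine codon, and 6874 of the 6875 calls at base 28, counted from 1 at the first listed base, covered the same 6 bases. The listing of the most frequent such clonotype shows them in capitals, with the cysteine codon tgt at base 64.
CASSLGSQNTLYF, TRBV26 with TRBJ2-4: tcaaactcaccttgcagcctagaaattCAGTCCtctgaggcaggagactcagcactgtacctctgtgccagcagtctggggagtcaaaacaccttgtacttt
No other V segment had a D call before the cysteine, and only 1 TRBV26 clonotype had no D call, against 28.2% of the clonotypes of other V segments. With D calls before the cysteine not counted, TRBD1 held 63.7%, 65.4% and 65.8% in gut and 62.4%, 65.1% and 66.2% in liver (difference of means 0.14 percentage points, exact permutation p = 0.843, 6 libraries each). Among TRBV26 alone it then held 66.3% ± 3.4 in gut and 64.6% ± 1.5 in liver. In TRBJ1 reads with a D call, where TRBD2 is not a normal partner, the TRBD2 share fell from 23.0% to 32.3% in gut and 14.1% to 19.8% in liver over all calls to 7.17% to 13.0% and 6.87% to 10.4% with those calls not counted. Reads without a D call made up 22.9%, 24.4% and 31.6% in gut and 27.4%, 29.6% and 30.4% in liver (exact adjusted p = 0.1), and with TRBV26 and TRBV23 left out 32.6% to 42.6% and 30.1% to 34.4%, the difference of means turning from -3.11 to 3.30 percentage points. With all V segments it was -5.44 without the gut libraries numbered 2, -3.13 without the liver libraries numbered 1, and -4.21 without STAT3ko gut 2, where it passed (exact permutation, adjusted p = 0.0278).

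**Figure D4:**
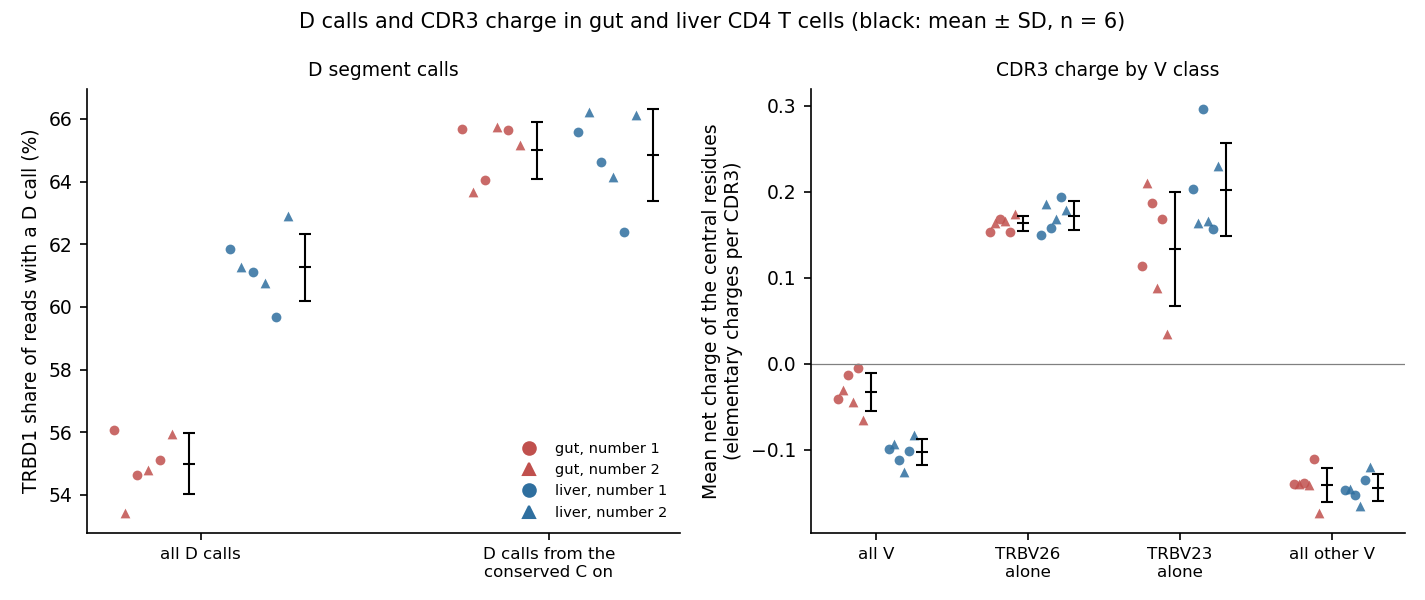
Left, TRBD1 share of reads with a D call (percent), over all calls and over calls from the conserved cysteine on; right, mean net charge of the central CDR3 residues (elementary charges per CDR3), over all V segments and by V class; points are libraries and black bars mean ± SD of 6. The left axis does not start at 0. The tissues separate over all D calls (53.4% to 56.1% against 59.7% to 62.9%) and not once calls before the cysteine are set aside, and charge separates over all V but not within a class.

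CDR3 length, counted from the conserved cysteine to phenylalanine, was 13.4, 13.6 and 13.7 residues (lowest, median and highest library mean) in gut and 13.6, 13.7 and 13.8 in liver, a difference of means of -0.132 residues (exact permutation p = 0.0463, adjusted p = 0.0694, 6 libraries each). The call depended on the fit, since the adjusted p was 0.0469 with a replicate block, 0.0417 without STAT3ko gut 1 and 0.0139 without WT gut 1 (exact permutation). None of 7 lengths passed (limma, 0%, with 3 at an unadjusted p under 0.05), nor did any with TRBV26 and TRBV23 left out (0%, with none unadjusted). CDR3s of 15 residues made up 12.4%, 15.5% and 18.3% of reads in gut and 18.3%, 18.7% and 19.98% in liver (log2 change -0.29 ± 0.11, limma adjusted p = 0.0958), and those of 13 residues 26.0%, 28.5% and 32.8% and 23.7%, 26.1% and 26.9%.

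The gut libraries numbered 2 had the shortest CDR3s. Their mean lengths were 13.4 to 13.5 residues, against 13.7 in all 3 gut libraries numbered 1, and without them the difference of means was -0.023 residues. These were also the libraries with the smallest listed share. In them, clonotypes found in at least 7 of the joined libraries held 38.8% to 41.9% of listed reads, against 25.3% to 26.9% in the gut libraries numbered 1 and 25.1% to 27.9% in liver. Clonotypes found in many libraries were shorter, with a mean of 13.4 residues for the 5644 found in at least 7 and 13.96 for the 44155 found in 2. Among clonotypes found in 2 libraries, the means of the gut libraries numbered 2 (13.57 to 13.72) were also below those of gut number 1 (13.94 to 14.01) and of liver (13.93 to 14.12). Over clonotypes found in at least 3 libraries the difference of the tissues was -0.124 residues. The part of the listed share and of this sharing in the length difference was not tested.

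The residues between the first 4 and the last 5 positions of the CDR3 differed in composition. This stretch can hold residues of the V and J segments as well as those of the D segment and added bases. Of 18 amino acids with a mean share of at least 0.5%, 5 were higher and 7 lower in gut (limma, 66.7% passed). The acidic residues fell. Aspartate made up 6.22%, 6.37% and 6.67% of central residues in gut and 7.51%, 7.75% and 8.27% in liver (log2 change -0.28 ± 0.03, limma adjusted p = 8.07e-05). Glutamate made up 1.77%, 2.10% and 2.33% in gut and 2.43%, 2.58% and 2.94% in liver (log2 change -0.32 ± 0.06). Neither overlapped between the tissues.

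The hydrophobic and aromatic residues phenylalanine, valine, tryptophan, isoleucine and alanine also fell. Phenylalanine made up 0.914% to 1.41% in gut and 1.47% to 1.82% in liver (log2 change -0.50 ± 0.07, limma adjusted p = 0.000301). The log2 changes of valine, tryptophan, isoleucine and alanine were -0.39, -0.29, -0.26 and -0.12. Serine, leucine, asparagine, proline and glutamine rose. Serine made up 8.78%, 9.34% and 9.78% in gut and 7.02%, 7.89% and 8.37% in liver (log2 change 0.24 ± 0.05, limma adjusted p = 0.00157). The log2 changes of leucine, asparagine, proline and glutamine were 0.19, 0.17, 0.13 and 0.11, those of proline and glutamine turning to -0.03 and -0.04 with TRBV26 and TRBV23 left out. The net charge of the central residues, with lysine and arginine as 1 and aspartate and glutamate as -1, had library means of -0.0658, -0.0358 and -0.00466 per CDR3 in gut and -0.126, -0.101 and -0.0831 in liver, without overlap (exact permutation p = 0.00926, adjusted p = 0.0185, 6 libraries each). With each clonotype counted once, the difference of means was 0.0111, against 0.0695 by reads, and did not pass (exact permutation, adjusted p = 0.236). Mean hydropathy on the Kyte-Doolittle scale was -1.03 ± 0.01 (SD, n = 6) per residue in gut and -1.04 ± 0.04 in liver (exact permutation p = 0.676), whereas over all residues of the CDR3 the difference of 0.0158 passed (exact adjusted p = 0.0185).

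The composition of central residues differed between TRBV26, TRBV23 and the other V segments, whose shares moved with tissue. In TRBV26 CDR3s, over the 12 libraries, aspartate made up 4.08% ± 0.25 (SD) of central residues and leucine 12.8% ± 0.6, and in TRBV23 CDR3s aspartate made up 3.59% ± 0.80 and glutamine 19.4% ± 1.4. In the CDR3s of the other V segments aspartate made up 8.12% ± 0.39, leucine 7.24% ± 0.59 and glutamine 8.52% ± 0.30. The central stretch of the TRBV23 sequence printed above begins with a glutamine. Net charge was positive within TRBV26 (0.163 ± 0.0084 in gut, 0.172 ± 0.017 in liver, n = 6 each) and within TRBV23 (0.133 ± 0.067 and 0.203 ± 0.054), and negative in the rest (-0.141 ± 0.020 and -0.145 ± 0.016). Within none of the 3 classes did the test separate gut from liver (exact permutation, adjusted p = 0.327 to 0.919). With TRBV26 and TRBV23 left out, none of 18 residues passed (limma, 0%, with 6 at an unadjusted p under 0.05), and phenylalanine had the lowest adjusted p, 0.0807, at a log2 change of -0.24 ± 0.07. Without the gut libraries numbered 2, 12 residues passed with all V segments in the totals, and without the liver libraries numbered 1, 7 passed.

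**Figure D5:**
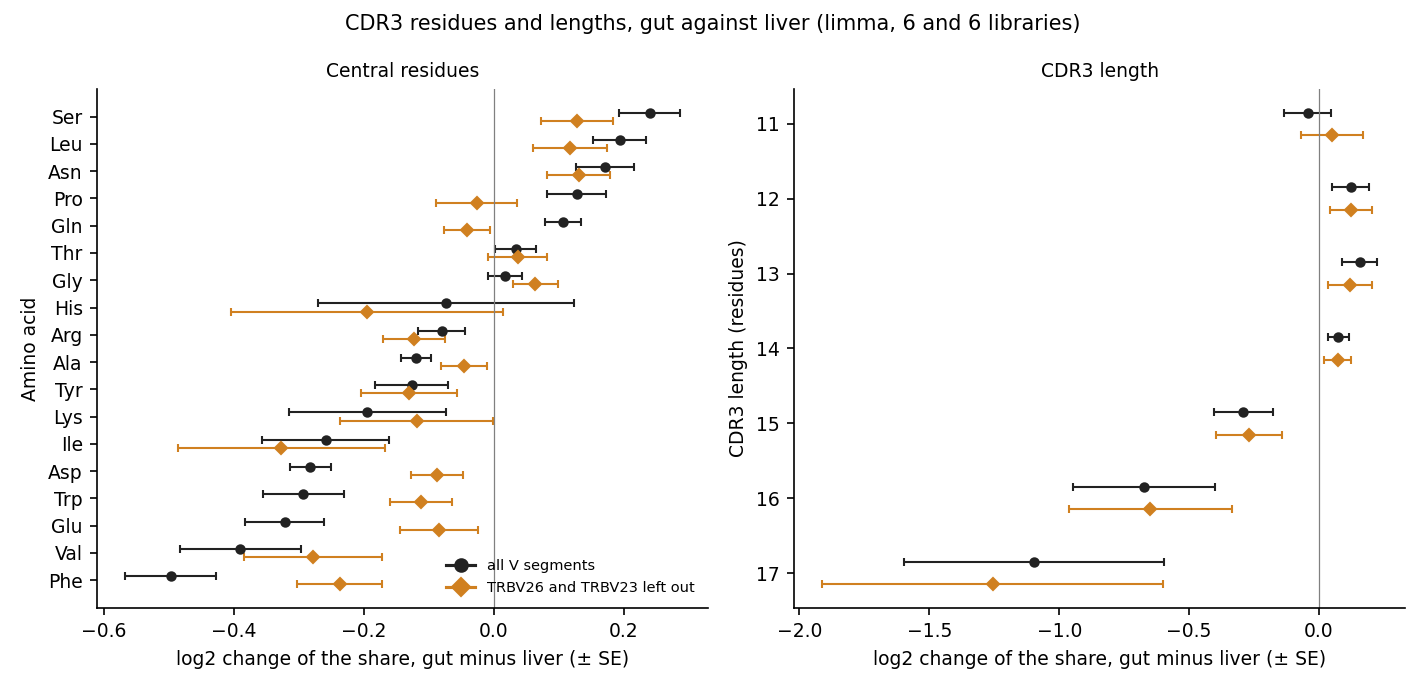
log2 change of the share, gut minus liver (± SE, limma, 6 libraries each), of the central residues (left) and of the CDR3 lengths (right), with all V segments in black and with TRBV26 and TRBV23 left out in orange. The largest fall among residues, that of phenylalanine, goes from -0.50 to -0.24, proline and glutamine go below 0, and the lengths of 15 residues or more lie below 0 in both.

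No difference between donor genotypes in the gut-liver contrast passed the test. In limma interaction terms, which compared the gut-liver difference of STAT3ko with WT, STAT3koPD-1ko with WT and STAT3koPD-1ko with STAT3ko, 0 of 20 V segments, 0 of 12 J segments and 0 of 188 V-J pairs passed in any of the 3 contrasts. At an unadjusted p under 0.05 there were at most 1 V segment, 0 J segments and 4 V-J pairs per contrast. The interaction with the lowest p among V segments was that of TRBV19, whose gut-liver log2 change in STAT3koPD-1ko minus that in STAT3ko was -0.75 ± 0.33 (log2, SE, limma adjusted p = 0.906). With 2 libraries per genotype and tissue, a missed threshold does not show that the genotypes were alike.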

How the data were processed

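Total RNA of sorted donor CD4+ T cells was turned into TCR libraries with a SMARTer mouse TCR kit and sequenced as paired reads on a MiSeq. Per the study's methods, the authors assembled clonotypes with MiXCR and joined libraries with VDJtools, and the labels name the build mm10. The deposited values are the fraction of a library's reads held by each clonotype, with no read counts, so the depth is unknown and no counting interval can be given. The deposited number of libraries of a clonotype and the V, D and J positions in its CDR3 are the other columns used. The 12 gut and liver columns were matched to samples by name, and each fraction was divided by the sum of the listed fractions of its library. The study's methods name 2 batches, each combined from mice, and no source used here ties them to the library numbers, so p-values measure the spread between pools, batch included.

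For V, J and V-J use, CDR3 lengths and central residues, limma (version 3.58.1, R version 4.3.3) was fitted to log2(percent + 0.1), or + 0.02 for V-J pairs, with tissue and genotype as terms, a minimum mean of 0.5% (0.1% for V-J pairs) and Benjamini-Hochberg adjustment, where a call is an adjusted p under 0.05. The limma step was checked on simulated data. The 6 single values (TRBJ2 and TRBD1 shares, share without a D call, length, hydropathy, charge) were tested by an exact two-sided permutation of tissue within genotype. CDR3 measures used sequences from C to F, leaving out 502 that were not, and central residues leave out the first 4 and last 5. Segment positions came from a GENCODE annotation of GRCm38, the assembly of mm10. Named were all segments, lengths and residues past the threshold, the superantigen-reactive V segments, and the 8 V-J pairs per direction with the largest change among those with the same sign in all 6 gut-liver pairs of a genotype and number. Members and lists were chosen with earlier results of these data known. The closing section gives the alternatives tried.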

Additional observations from a re-analysis of the deposited data

Results flagged for a closer look

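In groups of 6 libraries, a library was singled out where its gap to the nearest other library was beyond Dixon's critical value for the group's range, which chance does in about 1 in 20 groups. Of 118 groups looked at, 2 held such a library. TRBJ1-3 use in the library of STAT3koPD-1ko liver 2 was 5.136% of reads, below the 6.16% to 6.54% of the other liver libraries. The TRBV23 share of all reads in the library of WT liver 1 was 5.134%, above the 3.05% to 3.82% of the other liver libraries.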

How the results depend on the processing

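Depth is unknown in these fractions, and clonotypes found in a single library are not listed, so that the gut libraries numbered 2 are seen through 47.8% to 51.5% of their reads. V segment calls (10) became 18 with all V segments in the totals, 2 with each clonotype counted once, 5 in libraries numbered 1, and 6 without the gut libraries numbered 2 or the liver libraries numbered 1. J calls (6) became 0 with TRBV26 and TRBV23, with TRBV26 alone, or also with the TRBV21 sequences without a cysteine left out, 0 with each clonotype counted once and 2 without liver number 1. V-J calls (91) became 7, 28 and 6 under those omissions, 3 with each clonotype counted once, 59 with a smaller pseudocount, 55 with a centred log-ratio, 49 and 40 in libraries numbered 1 and 2, and 30 without liver number 1. Residue calls (12) became 0 with TRBV26 and TRBV23 left out, with or without the TRBV21 sequences, 3 with each clonotype counted once and 7 without liver number 1. Length calls (0) became 2 and 4 in libraries numbered 1 and 2. J calls within TRBV26 (0) became 1 with a larger pseudocount and 2 and 1 in libraries numbered 1 and 2, and within TRBV23 (0) became 2 in libraries numbered 2. The cause of these shifts was not tested. The omission of TRBV26 alone, that of the TRBV21 sequences and the D calls counted from the cysteine were chosen after seeing the data.

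The TRBJ2 difference (-4.11 percentage points) was -2.23 with TRBV26 and TRBV23 left out, -2.65 with the TRBV21 sequences also out, -2.19 with TRBV26 alone out, -1.2998 with each clonotype counted once, -4.09 without gut number 2 and -3.22 without liver number 1. In the same order the TRBD1 difference (-6.27) was -0.318, -0.318, -0.226, -2.45, -6.00 and -6.65, and it was 0.143 with D calls before the cysteine not counted. The difference in reads without a D call (-3.11) reversed to 3.30, 2.57 and 2.86 under the 3 omissions, and was -0.0214 with each clonotype counted once, -5.42 and -0.802 in libraries numbered 1 and 2 and -5.44 without gut number 2. The charge difference (0.0695) was 0.00389, 0.00389, 0.0295, 0.0111, 0.0832 and 0.0675 in that order, 0.0295 with CDR3s not trimmed, which drops nearly all TRBV26 sequences and so nearly repeats leaving out TRBV26 alone, and -0.0116 with libraries weighted to the mean V-J use. The hydropathy difference (0.00651) was -0.00595 in libraries numbered 1, -0.0291 with CDR3s not trimmed or TRBV26 alone out, -0.0379 with V-J weights and 0.0158 over all residues, where it passed.

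Leaving out each replicate in turn gave 9 to 12 V, 4 to 7 J, 53 to 85 V-J, 10 to 13 residue and 0 to 5 length calls, 0 to 1 J calls within TRBV26 and 0 to 2 interaction calls. Length calls were 4 without STAT3ko gut 1 and 5 without WT gut 1, and the 2 interaction calls came without STAT3koPD-1ko gut 1. The differences ranged from -4.49 to -3.83 for TRBJ2, -6.58 to -5.94 for TRBD1, -4.21 to -2.47 for reads without a D call, -0.156 to -0.101 for length, -0.00316 to 0.0147 for hydropathy and 0.0638 to 0.0760 for charge. The length difference passed without STAT3ko gut 1 or WT gut 1, and that in reads without a D call without STAT3ko gut 2.

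No source ties the library numbers to the 2 batches of the methods. Deviations of same-numbered gut and liver libraries from their group means correlated at -0.0285 to 0.0903 for V segments and -0.348 to 0.567 for J segments, not above 0.1 in every genotype, so the numbers were not taken as pairs. With a replicate block, 10 V segments, 5 J segments, 87 V-J pairs, 11 residues and 0 lengths passed, and the length difference of -0.132 passed (exact adjusted p = 0.0469).

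Among named features, fractions as deposited gave -0.47 for TRBV15, -0.20 for TRBV22, -0.42 for TRBV3, -0.27 for TRBJ1-1, -0.29 for TRBJ1-2, -0.17 for TRBJ1-3 and -0.33 for TRBJ1-4. TRBV16 (-0.01) was 0.14 with each clonotype counted once, 0.16 in libraries numbered 2, 0.0023 without the TRBV21 sequences and -0.098 to 0.074 with a replicate left out. Phenylalanine was 0.0040 over all residues. The share of residue P (proline) was -0.026 with TRBV26 and TRBV23 left out, -0.00394 not trimmed and -0.00405 with TRBV26 alone out, and glutamine -0.041 with TRBV26 and TRBV23 left out and -0.037 over all residues. Of the other values of named features under an alternative, 1057 kept direction and side of the threshold, 223 kept direction and lost the call and 2 gained it. Calls higher in gut were 7 of 10 for V segments, 5 of 18 with all V segments in the totals, 6 of 12 with a centred log-ratio and 1 of 15 with fractions as deposited. For V-J pairs they were 32 of 55 with a centred log-ratio and 18 of 129 with fractions as deposited, and for J segments 0 of 7.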
